A study of Homo sapiens with 4 samples.

Results

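Lipid droplet and triglyceride genes were examined for chromatin accessibility in A375 cells, an established human melanoma line. The 10 genes were PLIN2, PLIN3, PLIN4, PLIN5, DGAT1, DGAT2, PNPLA2, LIPE, CIDEC and HILPDA. An accessible region was assigned to a gene when it overlapped the RefSeq span of that gene extended by 10 kb on both sides, which gave 33 regions of 125986 in all. These 33 were assigned to 8 of the 10 genes, each to 1 listed gene only. Of them, 16 overlapped the span itself. The others lay outside it, some of them in the spans of other protein-coding genes. The assay was ATAC-seq: Tn5 transposase inserts sequencing adapters where DNA is open. A375 cells, grown in DMEM with serum, were exposed for 48 h either to 1 mM of the medium-chain fatty acid octanoate or to isopropanol, its vehicle; 2 libraries were made per group. The question is where accessibility differs after the fatty acid, and the authors' deposited table gives 1 fold change per region and no value for a single library.

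Cells store surplus fatty acids as triglyceride inside lipid droplets. DGAT1 and DGAT2 add the last acyl chain to diacylglycerol, perilipins coat the droplet, and CIDEC joins droplets into larger ones. PNPLA2, also called ATGL, and LIPE, hormone-sensitive lipase, release the fatty acids again, while HILPDA, a hypoxia-induced protein, inhibits PNPLA2. PLIN2 and PLIN3 coat droplets in most cells, whereas PLIN4 and PLIN5 are known mainly from adipose tissue, muscle and other fat-burning tissues. PLIN2 is also a known target of the fatty acid receptors of the PPAR family.

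The labelled cell type was checked by its marker genes. All 8 melanocytic markers (such as MITF, SOX10 and PMEL) had a listed region within 10 kb, and 6 of 8 had one within 1 kb of an end of the gene. All 11 markers of other cell types had a region within 10 kb too, as did 91.2% of all protein-coding genes, so that count does not mark the cell type. Within 1 kb of an end the shares were 3 of 11 and 73.2%, the latter close to that of the melanocytic markers. The summed mean signal of a marker ranged from 27.7 to 567 normalized reads for melanocytic genes and from 6.60 to 94.7 for the 4 epithelial genes. It ranged from 85.6 to 306 for the 3 leukocyte genes and from 4.13 to 102 for the 4 adipocyte genes. TYR and TYRP1 had no region within 1 kb of an end, and neither had any of the 4 epithelial markers. Of the leukocyte markers 2 of 3 had such a region, and of the adipocyte markers 1 of 4, PLIN1. An open region near a gene is not a measure of its RNA, and no part of these markers in the results below was tested.

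The starts of the perilipin genes, of LIPE and of CIDEC are shown because starts with and without a listed region occurred side by side in them; a start without one is not shown to be closed. The 250 bases before each start are printed here from RefSeq (GRCh38.p14), 5′ to 3′ along the gene. Capitals mark the E-box TCACGTG, the GC box GGGCGG, the CCAAT box CCAAT and the AP-1 form TGANTCA, on either strand. The starts of PLIN2 (chr9:19127493-19127742, minus strand) and PLIN3 (chr19:4867668-4867917, minus strand) were overlapped by a listed region. Those of PLIN4 (chr19:4518487-4518736, minus strand) and PLIN5 (chr19:4535225-4535474, minus strand) were not.
PLIN2: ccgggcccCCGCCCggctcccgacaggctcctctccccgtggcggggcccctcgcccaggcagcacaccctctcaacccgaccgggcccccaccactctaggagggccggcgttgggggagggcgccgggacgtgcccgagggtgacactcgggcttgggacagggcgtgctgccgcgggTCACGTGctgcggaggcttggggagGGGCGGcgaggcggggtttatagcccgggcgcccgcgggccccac
PLIN3: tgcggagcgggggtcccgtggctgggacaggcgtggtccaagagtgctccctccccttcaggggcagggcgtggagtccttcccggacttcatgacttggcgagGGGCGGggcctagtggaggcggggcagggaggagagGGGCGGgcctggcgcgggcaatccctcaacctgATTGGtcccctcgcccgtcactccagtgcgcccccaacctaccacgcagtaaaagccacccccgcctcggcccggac
PLIN4: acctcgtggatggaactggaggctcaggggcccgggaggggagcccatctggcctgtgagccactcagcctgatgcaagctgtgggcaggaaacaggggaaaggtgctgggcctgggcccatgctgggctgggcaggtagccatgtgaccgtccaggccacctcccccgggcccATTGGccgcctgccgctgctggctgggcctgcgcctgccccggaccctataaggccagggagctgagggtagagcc
PLIN5: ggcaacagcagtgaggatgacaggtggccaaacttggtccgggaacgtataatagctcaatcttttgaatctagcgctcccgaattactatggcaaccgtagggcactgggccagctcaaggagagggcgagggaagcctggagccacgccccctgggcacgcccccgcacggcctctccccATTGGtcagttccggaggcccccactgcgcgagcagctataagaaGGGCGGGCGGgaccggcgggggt

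LIPE has a pair of RefSeq starts, and they differed in the same way. The downstream one (chr19:42423586-42423835, minus strand) was overlapped by a region and the upstream one (chr19:42427389-42427638, minus strand) was not.
LIPE downstream start: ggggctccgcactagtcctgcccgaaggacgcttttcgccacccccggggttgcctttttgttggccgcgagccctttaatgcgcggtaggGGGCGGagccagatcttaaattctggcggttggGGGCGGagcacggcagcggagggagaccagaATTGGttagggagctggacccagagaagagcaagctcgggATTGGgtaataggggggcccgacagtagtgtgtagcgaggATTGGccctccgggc
LIPE upstream start: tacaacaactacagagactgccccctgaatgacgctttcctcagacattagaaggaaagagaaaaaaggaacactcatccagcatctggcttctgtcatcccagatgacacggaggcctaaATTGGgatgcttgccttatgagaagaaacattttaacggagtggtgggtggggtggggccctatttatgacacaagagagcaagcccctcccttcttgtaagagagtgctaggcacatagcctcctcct

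CIDEC also has a pair of RefSeq starts. The downstream one (chr3:9878813-9879062, minus strand) was overlapped by a region and the upstream one (chr3:9880254-9880503, minus strand) was not.
CIDEC downstream start: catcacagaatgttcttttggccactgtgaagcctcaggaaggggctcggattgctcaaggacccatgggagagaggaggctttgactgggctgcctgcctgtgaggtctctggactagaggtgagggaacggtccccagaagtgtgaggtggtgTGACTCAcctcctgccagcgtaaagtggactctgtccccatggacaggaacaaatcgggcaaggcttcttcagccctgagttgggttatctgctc
CIDEC upstream start: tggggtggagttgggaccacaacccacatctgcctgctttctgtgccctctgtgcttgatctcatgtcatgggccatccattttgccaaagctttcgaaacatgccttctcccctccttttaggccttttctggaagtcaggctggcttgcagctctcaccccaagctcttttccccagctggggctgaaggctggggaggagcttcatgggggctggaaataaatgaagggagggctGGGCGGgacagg

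The starts of PLIN2, PLIN3 and LIPE that were overlapped by a region were rich in CG dinucleotides, but PLIN5 and CIDEC did not follow this. The window before PLIN2 held 28 CG dinucleotides at 78% G+C, and that before PLIN3 held 19 at 70.8%. The downstream LIPE start had 18 CG dinucleotides and the upstream one had 3. PLIN4 had 8, although its G+C content of 69.2% was close to that of PLIN3, and PLIN5 had 17. The start of CIDEC that was overlapped by a region had 4 and its other start had 2, at the same G+C content of 56.4%. PNPLA2 had 4, and its window was not overlapped. Among all 22199 protein-coding starts in the RefSeq promoter table, 66.3% were overlapped, with a median of 21 CG dinucleotides against 4 in those not overlapped. Among starts within 5 percentage points of G+C, 84.2% were overlapped for PLIN4 and 74.9% for PLIN5. These shares match on G+C alone and not on CG dinucleotides, of which PLIN4 had 8.

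**Figure D1:**
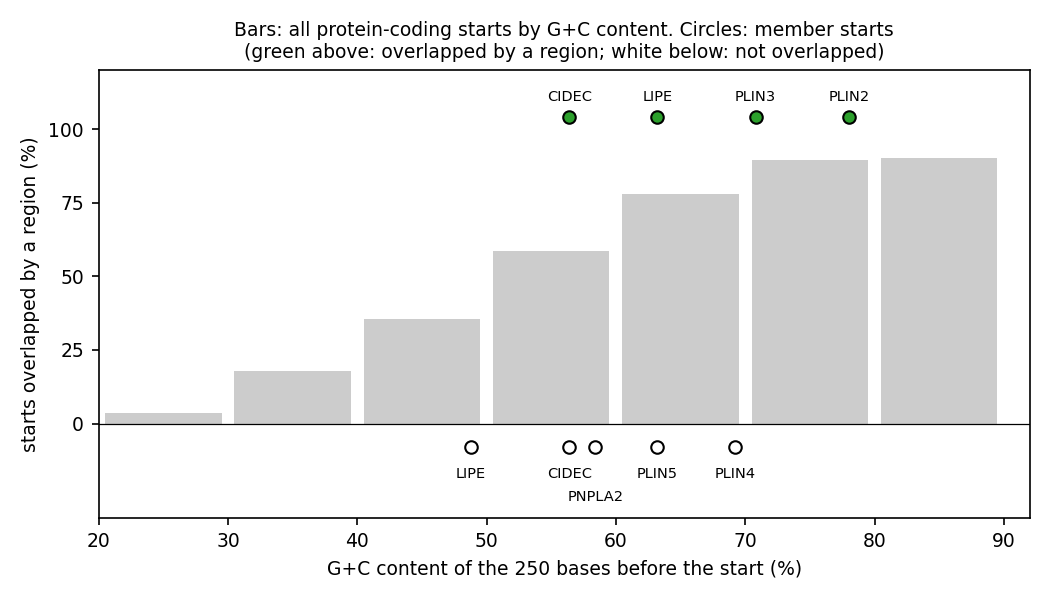
The bars give the percentage of protein-coding starts whose preceding 250 bases were overlapped by a listed region (y axis) in bins of G+C content in percent (x axis), and the circles are the 9 starts of 7 genes of the list. The share rises from 3.47% in the lowest bin to 90.2% in the highest, and the starts of PLIN4 and PLIN5 lie among bins in which most starts were overlapped. The bins take no account of CG dinucleotides.

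Each motif was counted on both strands of these windows. TCACGTG, an E-box of the form bound by MITF and its relatives, occurred before PLIN2 from position -70 to -64, counted back from the base before the start as -1. It occurred before 1 of 9 starts of the list and before 3.98% of all starts (5.10% of those overlapped by a region). That match holds the E-box CACGTG, found before 7.37% of all starts, and overlaps ACGTG, the core letters of hypoxia elements, found before 20.2%. GGGCGG occurred before 6 of the 9 starts and 53.7% of all starts, and CCAAT before 5 of 9 and 32.7%. TGANTCA, the AP-1 form, occurred before 1 of 9, the overlapped CIDEC start, against 5.36% of all. AGGTCA, a hexamer of nuclear receptors, occurred before PNPLA2 only among the 9, against 10.5% of all, and AGGTCANAGGTCA, the exact repeat used by PPAR receptors, before 0 of 9 and 0.0135% of all. A match describes letters only.

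Octanoate gave no call among these genes. Of the 33 regions, 7 (21.2%) had a mean high enough to enter the authors' adjustment, called tested here, against 8.88% of all nuclear regions. Within 1 kb of an end of any protein-coding gene the order was reversed: 26.7% of the list's 15 regions were tested, against 42.3% of all such regions. Of the 7, 3 overlapped the span of a listed gene. DESeq2's Benjamini-Hochberg p stayed at or above 0.05 in 7 of 7, giving 0 calls per the authors' deposited table. Over all tested regions 1.02% were called, a share from which 0 of 7 cannot be told apart. At an unadjusted p under 0.05, 0 of 7 were higher and 0 lower, against 14.8% higher and 0.107% lower over all tested regions per the authors' deposited table. The 7 fold changes of the authors' deposited table lay between -0.07 and 0.24 on the log2 scale, with a median of 0.06, where all tested regions had a median of 0.19. The median of all 33 was 0.09 per the authors' deposited table, where all nuclear regions had 0.23. This contrast depended on which regions were counted. With 1 gene left out the median ran from 0.058 without DGAT2 to 0.20 without PNPLA2, and it was 0.17 without PLIN2. It was 0.13 with no extension of the spans, 0.21 with 50 kb, and 0.19 as the median of the gene medians. Of the 33, 21 lay above 0 (63.6%), against 72.1% of all nuclear regions. The whole table is shifted upwards, so relative to the tested median the median of the 33 was -0.10. The median SE of tested regions was 0.22, at which an unadjusted p of 0.05 takes a log2 fold change of 0.42. In the 7 regions of the list the SE ran from 0.16, at the PLIN2 start, to 0.26, and the size needed from 0.31 to 0.50. These are sizes of the estimate, and an adjusted p under 0.05 takes a larger one.

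**Figure D2:**
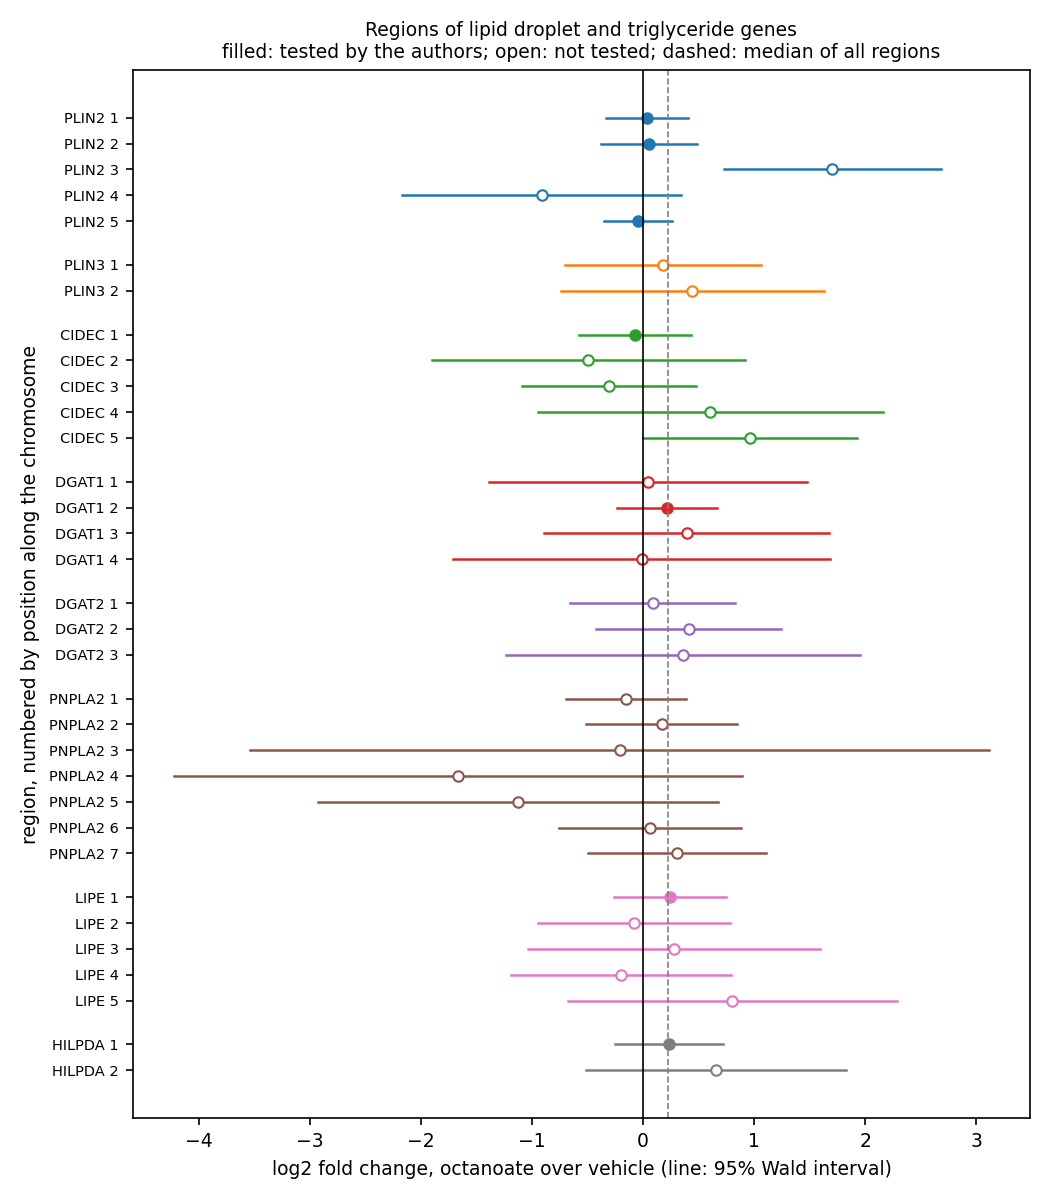
Each row is 1 of the 33 regions, numbered by position along its chromosome. The x axis gives the authors' log2 fold change of octanoate over vehicle, with a line for its 95% interval. Filled points entered the authors' adjustment of p and open ones did not. The interval of 1 region, the third of PLIN2, lies wholly above 0, and the 7 filled points sit between -0.07 and 0.24.

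PLIN2 had the highest summed mean signal of the list, 422 normalized reads, in 5 regions, 3 of them tested. That sum includes the tested regions beyond its span that are described below. The region over its start (chromosome 9, 19126905 to 19130435) was 3531 bp wide and had a mean of 181 normalized reads, at percentile 99.1 of nuclear regions, or 51.3 per kb, at percentile 85.8. The deposited mean and fold change imply 184 normalized reads with vehicle and 178 with octanoate. The log2 fold change was -0.05 (SE 0.16, adjusted p 0.919) per the authors' deposited table, with a 95% interval of -0.35 to 0.26. The groups did not differ beyond this error at the PLIN2 start. A region past the other end of the gene (19102150 to 19103259), which lies within 1 kb of the start of HAUS6, a gene of the mitotic spindle, had a mean of 120 and a log2 fold change of 0.04 by the authors' deposited table. Its neighbour (19104492 to 19105455), which overlapped no protein-coding gene, had a mean of 88.4 and a log2 fold change of 0.06 by the authors' deposited table.

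A region inside PLIN2 had the smallest p of the 33, and its values are given as the most extreme of that number. It lay within the gene's span (chromosome 9, 19113974 to 19114723), centred 13.1 kb after the start, and exons and introns were not analysed here. Its mean was 20.8 normalized reads, at percentile 68.8 of nuclear regions, or at percentile 50.1 when taken per kb. This mean stands for 163 to 201 reads over the 4 libraries together. The implied levels were 9.78 normalized reads with vehicle and 31.9 with octanoate. The log2 fold change was 1.70 (SE 0.50, unadjusted p 0.000623) per the authors' deposited table, which is 3.26-fold with a 95% interval of 1.66 to 6.41. Its mean was below the lowest tested mean of 63.8, where the authors' deposited table lists every adjusted p at 1, and it was treated as not tested. Adjusted by Benjamini-Hochberg over all 125986 regions its p was 0.388, and so it did not pass the threshold. It was the 1 region of all 33 with an unadjusted p under 0.05, and it was higher, where 3.58% of all nuclear regions were higher and 0.179% lower at that p. Among untested regions alone this was 1 of 26 (3.85%), against 2.48% higher and 0.186% lower over all untested regions.

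The other region inside PLIN2 (19118934 to 19119364), 8.34 kb after the start, had the opposite sign. Its mean was 11.5, and its log2 fold change was -0.91 (SE 0.64, unadjusted p 0.155) per the authors' deposited table. The difference between the regions of PLIN2 was not tested.

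**Figure D3:**
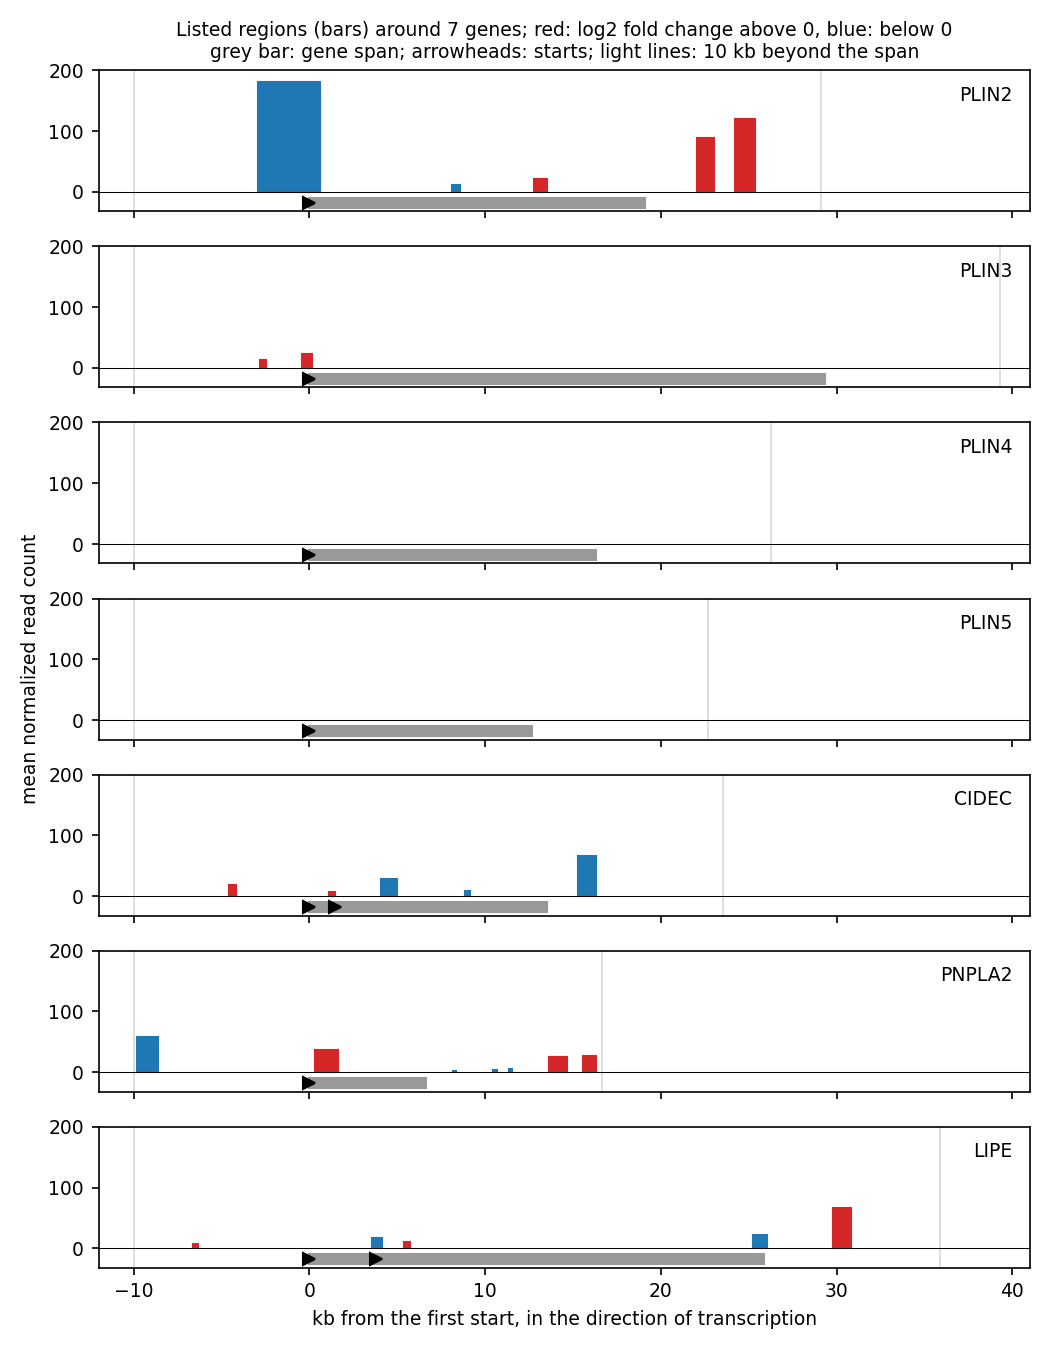
Bars are listed regions placed by distance in kb from the first start of each of 7 genes, in the direction of transcription (x axis), with the mean normalized read count as height (y axis), red where the log2 fold change was above 0 and blue where it was below. PLIN2 has the tallest bar, at 181 over its start, while PLIN4 and PLIN5 have none.

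PLIN3, the other widely expressed perilipin, had a small open start. Its region (chromosome 19, 4867541 to 4868073) had a mean of 22.6 normalized reads, or 42.5 per kb against 51.3 per kb at the PLIN2 start. The implied levels were 21.2 with vehicle and 24.0 with octanoate, and the log2 fold change was 0.18 (SE 0.45, unadjusted p 0.692) per the authors' deposited table. A second region, centred 2.65 kb before the start, had a mean of 12.3 and a log2 fold change of 0.44 (SE 0.60) per the authors' deposited table. Neither entered the authors' adjustment.

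PLIN4 and PLIN5, the tissue-restricted perilipins, had no listed region within 10 kb. Their spans lie 4.05 kb apart on chromosome 19, and the stretch without a listed region around both was 103 kb long (4472403 to 4575399). Gaps between neighbouring regions of chromosome 19 had a median of 14.5 kb, and 66 of 2153 (3.07%) were as long. That share counts gaps, and long gaps hold more sequence than short ones, so it is not a share of genes. Of all protein-coding genes 8.78% had no region within 10 kb, as did 14.0% of those on chromosome 19. Among protein-coding genes spanning 10 to 35 kb, as both of these do, it was 6.96%. The nearest region, 29.8 kb beyond PLIN4, had a log2 fold change of 0.21 (SE 0.24, unadjusted p 0.377) per the authors' deposited table. A table of called regions lists no signal below its caller's limit, so less access at these genes cannot be given a value.

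CIDEC, the droplet fusion protein best known from adipocytes, had 5 regions. Its strongest (chromosome 3, 9863921 to 9864981) lay beyond the far end of the gene in no protein-coding span, with a mean of 65.3 and a log2 fold change of -0.07 (SE 0.26, adjusted p 0.925) per the authors' deposited table. The region before its downstream start (9878821 to 9879125) was weak, with a mean of 7.40, implied levels of 5.88 with vehicle and 8.93 with octanoate, and a log2 fold change of 0.60 (SE 0.79) per the authors' deposited table. The smallest p of the gene belonged to a region 4.40 kb before the upstream start (9884464 to 9884851, mean 18.7). There the implied levels were 12.7 with vehicle and 24.7 with octanoate, and the log2 fold change was 0.96 (SE 0.49, unadjusted p 0.0507) per the authors' deposited table. A pair of regions inside the gene had negative fold changes, -0.49 and -0.31, with SEs of 0.72 and 0.40 per the authors' deposited table. The signs within CIDEC were thus mixed and none of its 5 intervals excluded 0.

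The triglyceride-forming enzymes were open at an end of each gene. DGAT1 had 4 regions. The one at the upper end of its span (chromosome 8, 144326475 to 144327471) had a mean of 82.7 and, per kb, 83.0 normalized reads, at percentile 96.6. Its implied levels were 76.5 with vehicle and 88.9 with octanoate, with a log2 fold change of 0.22 (SE 0.23, adjusted p 0.692) per the authors' deposited table. Its other 3 regions had means of 6.61 to 10.4 and log2 fold changes of -0.01 to 0.39 per the authors' deposited table, and one lay within SCRT1. DGAT2, an unrelated protein that makes the same product, had 3 regions and none was tested. At the lower end of its span (chromosome 11, 75768259 to 75769020) the mean was 30.1, the implied levels were 29.2 and 31.1 with vehicle and octanoate, and the log2 fold change was 0.09 (SE 0.38) per the authors' deposited table. At its upper end (75800683 to 75801164) the mean was 28.3, and the log2 fold change of 0.41 (SE 0.42, unadjusted p 0.332) had the smallest p of the gene per the authors' deposited table. Per kb the signal was 83.0 at the DGAT1 end and 39.6 at the lower DGAT2 end.

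The lipases and their inhibitor gave no call either. PNPLA2, which starts triglyceride breakdown, had 7 regions and none was tested. The region nearest its start (chromosome 11, 819243 to 820520) began inside the gene and had a mean of 37.4, with implied levels of 35.2 for vehicle and 39.6 for octanoate. The log2 fold change there was 0.17 (SE 0.35, unadjusted p 0.624) per the authors' deposited table. The strongest region, with a mean of 57.4, lay at the start of RPLP2, a ribosomal protein gene, and its log2 fold change was -0.15 (SE 0.27) per the authors' deposited table. The remaining 5 regions lay in CRACR2B or CD151 beyond the end of PNPLA2. The lowest fold change of the whole list, -1.67 (SE 1.30, unadjusted p 0.201) per the authors' deposited table, came from the CRACR2B region at 829354 to 829567, with a mean of 3.54 or 28 to 34 reads in all. At so few reads the interval ran from -4.22 to 0.89.

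LIPE had 5 regions with 1 tested. The tested region (chromosome 19, 42396560 to 42397592) lay beyond the gene's far end, at a start of LIPE-AS1, an antisense RNA, and not at LIPE's own starts. It had a mean of 67.2 and implied levels of 61.6 with vehicle and 72.9 with octanoate, and its log2 fold change of 0.24 (SE 0.26, adjusted p 0.689) was the highest of the 7 tested per the authors' deposited table. The region at the downstream start (42423244 to 42423802) lies within 1 kb of another LIPE-AS1 start. Its mean was 17.3, and its log2 fold change was -0.20 (SE 0.50, unadjusted p 0.697) per the authors' deposited table. The smallest p of LIPE belonged to a region in CXCL17 (42433736 to 42434003, mean 7.97), at a log2 fold change of 0.81 (SE 0.76, unadjusted p 0.288) per the authors' deposited table.

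HILPDA, the smallest gene of the list at 2.54 kb, had 2 regions. The region over the lower end of its span (chromosome 7, 128455466 to 128456280) had a mean of 69.5 and 85.3 normalized reads per kb, the highest among regions within 1 kb of an end of a listed gene. Implied levels were 64.0 with vehicle and 75.1 with octanoate, and the log2 fold change was 0.23 (SE 0.25, adjusted p 0.693) per the authors' deposited table. The region past its upper end (128459350 to 128459708) had a mean of 12.4 and a log2 fold change of 0.66 (SE 0.60, unadjusted p 0.269) per the authors' deposited table.

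**Figure D4:**
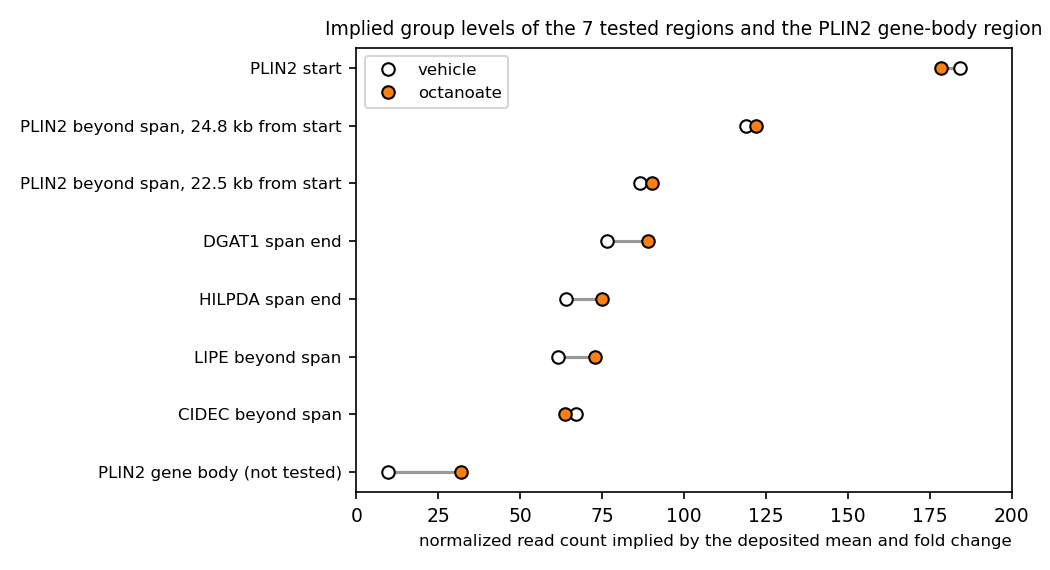
Points give the normalized read count (x axis) implied for vehicle (white) and octanoate (orange) by the deposited mean and fold change, for the 7 tested regions and the untested PLIN2 gene-body region (rows). The pairs of the tested regions lie close together, while the PLIN2 gene-body region runs from 9.78 to 31.9. Error bars are not drawn, since the table gives no spread for a group.

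By signal per kb, the regions within 1 kb of an end of a listed gene ran from HILPDA at 85.3 and DGAT1 at 83.0 to the upper DGAT2 end at 58.6, PLIN2 at 51.3, PLIN3 at 42.5, the lower DGAT2 end at 39.6, the upper HILPDA end at 34.6, PNPLA2 at 29.3 and the far end of LIPE at 27.9. The spread of these levels over libraries is unknown, so neighbours in this order cannot be separated. By role, the median log2 fold change was 0.05 over 12 regions of PLIN2, PLIN3 and CIDEC per the authors' deposited table. It was 0.22 over 7 of the DGAT genes and 0.12 over 14 of the lipases and HILPDA per the authors' deposited table. Regions within 1 kb of an end of any protein-coding gene had a median of 0.06 over 15 of the list per the authors' deposited table, against 0.14 over all such regions. The other 18 had 0.26 against 0.25.

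**Figure D5:**
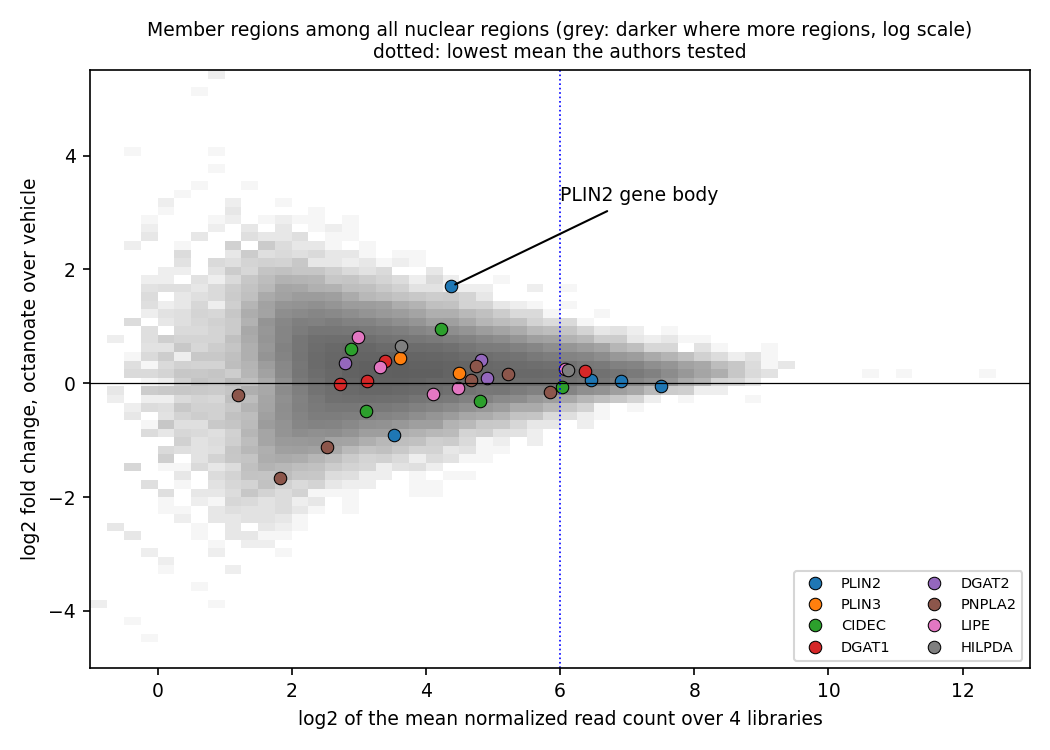
All nuclear regions (grey, darker where more) are plotted by log2 of the mean normalized read count (x axis) and log2 fold change (y axis), with the 33 regions coloured by gene; the dotted line is the lowest tested mean, 63.8. The 7 regions right of the line lie close to 0, and the PLIN2 gene-body region at 1.70 lies at the upper edge of the grey cloud for its mean.

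Further genes of triglyceride metabolism, 30 in all, had 150 more regions within 10 kb of their spans, and each of the 30 had at least 1. Whether these regions also lay in other genes was not examined. Those assigned to LIPA ran from 89213331 to 89415544 on chromosome 10. Their median log2 fold change was 0.25 per the authors' deposited table, and 119 regions lay above 0 (79.3%), against 0.23 and 72.1% over all nuclear regions. At an adjusted p under 0.05, 0 of their 20 tested regions were called (1.02% of all tested). At an unadjusted p under 0.05, 2 were higher and 0 lower per the authors' deposited table (14.8% and 0.107% of all tested). Both belong to lipins, the phosphatases that make diacylglycerol for the DGAT enzymes. A region inside LPIN1 (chromosome 2, 11743926 to 11744942) had implied levels of 84.2 with vehicle and 126 with octanoate and a log2 fold change of 0.58 (SE 0.21, adjusted p 0.126) per the authors' deposited table. The region at the lower end of LPIN3 (chromosome 20, 41339929 to 41341072) had implied levels of 73.7 and 106 and a log2 fold change of 0.53 (SE 0.23, adjusted p 0.231) per the authors' deposited table. Relative to the tested median these were 0.39 and 0.34. By role, 0 of 12 tested regions of synthesis genes, 0 of 3 of coat and assembly genes, 0 of 3 of breakdown genes and 0 of 2 of sterol ester genes were called.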

How the data were processed

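Tn5-accessible DNA was sequenced from 4 libraries of A375 cells, and the authors deposited 1 table of their DESeq2 comparison of octanoate with vehicle, with 0 columns for single libraries. Per the submitters' processing notes, reads were handled with Trim Galore, cutadapt, FastQC, Bowtie2, Picard, MACS2, featureCounts, DESeq2 and bedtools 2.29.1 on hg38. Their settings, and whether read ends were moved to the Tn5 insertion site, are not given in the sources used here.

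Per the file headers, the deposited signal is a mean of normalized read counts over the 4 libraries. Fold changes were deposited as log2 of octanoate over vehicle, each with a standard error (SE). The deposited Wald score, p-value and adjusted p-value come from the same fit. The deposited adjusted p equalled Benjamini-Hochberg values over 11185 regions, those whose mean reached 63.8. The other 114801 regions, listed at 1, were treated as not tested, although the authors' fit gave them an unadjusted p too.

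Table starts count from 0 and were changed to count from 1. All 10 genes of interest and all 30 further genes of the pathway matched the RefSeq gene table of GRCh38.p14 by symbol, and 7 of the 10 had starts in the RefSeq promoter table. Implied group levels are the pair of values that have the deposited mean and fold change, an approximation, since the fit weights libraries by their scaling. Intervals of 95% are the fold change plus or minus the normal quantile times the authors' SE. Depth was recovered in part: all 2492 distinct means under 3 were sums of whole reads worth 0.413, 0.431, 0.434 or 0.512 normalized reads in the 4 libraries, where a match was equality of the sum over libraries after rounding to 1e-06 normalized reads. No step was assigned to a sample, so reads are given only as totals over the libraries, as a range. These totals and the authors' intervals cover no spread beyond these libraries, and nothing in the labels says that they are separate cultures. Centring and adjustment were tested on simulated data. The work used Python 3.11.15, pandas 2.3.3, numpy 2.4.6, scipy 1.17.1 and matplotlib 3.10.9.

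The genes and lists were chosen with earlier results of these data known. The rule for naming took every gene of the list, its regions at a start, of highest mean and of smallest p, and further pathway genes with a tested region at an unadjusted p under 0.05. Alternatives were other windows, thresholds, adjustments, centrings and subsets of regions. The regions of DGAT1, DGAT2 and HILPDA are placed by span ends alone.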

Additional observations from a re-analysis of the deposited data

How the results depend on the processing

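The count of 0 called regions stayed 0 with no extension of the gene spans, with 50 kb, after centring on the tested or the all-region median, at an adjusted p under 0.1 and with adjustment over all regions. The count of 0 tested regions at an unadjusted p under 0.05 became 1 of 15 with 50 kb, and 1 of 33 when untested regions, added after seeing the data, were included; by construction both add regions. The median log2 fold change of 0.09 was -0.10 after centring on the tested median and -0.14 on the median of all regions, because both constants exceed it. It also moved by over 1.5 times when 1 gene was left out (0.058 to 0.20: lowest without DGAT2, highest without PNPLA2, and 0.17 without PLIN2), with 50 kb (0.21), in tested regions only (0.057), in the region of highest mean per gene (0.133), as the median of the gene medians (0.19) and in regions at or above the median mean signal (0.17); the cause was not tested. With no extension it was 0.13. The PLIN2 gene-body fold change was 1.52 and 1.47 after the 2 centrings.

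No paired analysis was possible because single libraries have no columns. For that reason leaving out a replicate and other scalings were not run.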

Other observations

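Among the untested regions of the further pathway genes, 4 of 130 (3.08%) were higher and 0 lower at an unadjusted p under 0.05, a share near the 2.48% higher among all untested regions (0.186% lower). They were chosen after their values were seen and are given as values only. A region inside MOGAT1, a monoacylglycerol acyltransferase gene (chromosome 2, 222707397 to 222708568, mean 39.5), had a log2 fold change of 1.08 (SE 0.34, unadjusted p 0.00142) per the authors' deposited table. A region beside PLIN1, the adipocyte perilipin (chromosome 15, 89662872 to 89663834, mean 54.1), had 0.67 (SE 0.28, unadjusted p 0.0175) per the authors' deposited table. A region inside MGLL, monoglyceride lipase (chromosome 3, 127768328 to 127769049, mean 27.9), had 0.93 (SE 0.40, unadjusted p 0.0201) per the authors' deposited table. A region inside SOAT1, which esterifies cholesterol for droplets (chromosome 1, 179310503 to 179311166, mean 22.3), had 1.14 (SE 0.45, unadjusted p 0.0118) per the authors' deposited table. Adjusted over all 125986 regions their p-values ran from 0.497 upwards, and none passed.

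With spans extended by 50 kb, 1 of 15 tested regions was higher at an unadjusted p under 0.05, where 14.8% of all tested regions were. It lay on chromosome 7 from 128409448 to 128410615, beyond HILPDA, with a log2 fold change of 0.45 (SE 0.23, adjusted p 0.331) per the authors' deposited table.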
